A study of Mus musculus with 15 samples.

Results

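Transcripts of alveolar luminal cells (ALs) at midgestation were set against those of basal cells enriched for mammary stem cells (MaSCs) of the virgin gland. The members were the 6 arrays of these 2 populations, 3 of ALs and 3 of MaSCs, out of 15 arrays of 5 sorted populations of mouse mammary epithelial cells (MECs). ALs were lineage-negative cells carrying yellow fluorescent protein (YFP), sorted from the mammary glands of adult Wap-Cre;R26Y females on the C57BL/6 background at midgestation. MaSCs were lineage-negative, CD24-positive cells with high CD29, sorted from adult virgin wildtype C57BL/6 females. In Wap-Cre;R26Y mice the promoter of Wap, a milk protein gene, drives Cre, which switches on YFP from the Rosa26 locus for good, so the mark also stays in descendants of a cell that once used the promoter. The MaSC gate also takes in myoepithelial cells. The populations therefore differed at once in lineage, stage, genotype and sort gate, and these cannot be told apart in this comparison. The MaSC arrays came from 3 cell suspensions of virgin females. Whether the AL arrays came from separate animals is not given in the sources used here, so the p-values here describe the variation among arrays, which may be technical.

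The mammary epithelium has an inner luminal layer and an outer basal layer. During pregnancy luminal cells proliferate and build alveoli, and prolactin, acting through its receptor, Jak2 and Stat5, turns on the milk protein genes together with the synthesis of fat and lactose. Basal cells rest on the basement membrane, which they help to build. Most of them are contractile myoepithelial cells, which squeeze the alveoli in response to oxytocin, and the layer also holds cells that can rebuild a gland on transplantation.

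Values are intensities of Affymetrix probe sets as normalised with dChip by the study, with 1 probe set per gene. A difference is AL minus MaSC on the log2 scale, with its standard error (SE) from limma fitted to all 15 arrays. Each SE therefore draws on the spread within every population on these arrays, not only ALs and MaSCs. The arrays of marked virgin Wap-Cre;R26Y cells were the least alike within a population (Pearson's r 0.90 to 0.97). A gene passed with a Benjamini-Hochberg adjusted p under 0.05 over 12143 genes. Median intensity ran from 147 to 158 on the AL arrays and from 152 to 171 on the MaSC arrays. Across genes, AL arrays correlated with each other at 0.984 to 0.989 and MaSC arrays at 0.943 to 0.973, whereas AL and MaSC arrays correlated at 0.727 to 0.775 (Pearson's r of log2 intensity, a description, since genes are not independent replicates). The ratio of 3′ to 5′ probe sets of Actb was 0.57 to 0.67 on the log2 scale on AL arrays and 0.75 to 1.02 on MaSC arrays, and that of Gapdh was 0.52 to 0.62 on AL arrays and 0.49 to 0.51 on MaSC arrays. In these bulk samples, fewer cells of a type and less RNA per cell cannot be told apart.

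The populations matched their labels in part. Milk protein genes were bright on all AL arrays and basal keratin and smooth muscle genes on all MaSC arrays, yet neither population was free of genes of the other layer. Luminal keratins were about as bright in MaSCs as in ALs, and several luminal genes were uneven over the MaSC arrays, with the third array lowest. Of the 18 tested genes of luminal keratins and identity, 16 had their lowest MaSC value on the third array (88.9%, against 40.5% of all genes tested). For this reason counts of gene groups are also given with the third MaSC array as the only basal array where that moves them by more than 1.5 times. Smaller moves under this alternative are not marked. ALs in turn kept transcripts of some contractile genes, among them Acta2, Mylk and Oxtr. These were far lower in luminal progenitors (LPs) and mature luminal cells (MLs), the virgin luminal populations on the other arrays. ALs also carried transcripts of stromal cells.

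The difference between ALs and MaSCs spanned most of the measured transcriptome. Of 12143 genes, 7212 passed (59.4%), 3802 of them higher in ALs (31.3%) and 3410 lower (28.1%). With an additional minimum of 2-fold, 1837 genes were higher (15.1%) and 1727 were lower (14.2%). At least 10-fold differences were seen in 290 genes higher and 313 lower in ALs. For 4330 genes (35.7%) all AL arrays lay above all MaSC arrays, and for 3904 (32.2%) all lay below. The median difference over all genes was 0.05 on the deposited scale, which the normalisation of the arrays bears on, and 0.14 with arrays centred on their medians, when 60.51% of the genes that passed were higher. A group is described by its counts beside 31.3% and 28.1%, and a share near these values says nothing about the group.

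The genes that differed most in favour of ALs were milk protein genes. Csn1s1, which encodes alpha-S1-casein, had intensities of 14886, 16126 and 15939 in ALs, against 15.5, 10.97 and 9.52 in MaSCs. Its difference of 10.38 (SE 0.38, adjusted p = 2.62e-08) was the highest by the ranking used for named genes, which adds 16 to each intensity before log2 so that dim values weigh less, and on that scale it was 561-fold. Csn2, the beta-casein gene, stood at 14252, 15065 and 14805 in ALs and at 24.4, 27.4 and 61.7 in MaSCs (286-fold on the same scale). Wap, the whey protein whose promoter drove Cre, reached 4811, 8717 and 4648 in ALs, against 20.8, 12.7 and 17.9 in MaSCs (difference 8.43, SE 0.35, adjusted p = 3.59e-08). In all of these the MaSC arrays lay near the background of the array, so the size of the fold is set largely by how background is handled. Csn1s2a, another casein gene, was at 16577, 17193 and 17281 in ALs and at 263, 122 and 223 in MaSCs. Glycam1, a mucin-like protein of milk, was at 16456, 18575 and 17629.8 in ALs and at 722, 38.2 and 43.8 in MaSCs. The first MaSC array stood apart from the other two for this gene, although all AL arrays were far above it (difference 7.36, SE 1.59, adjusted p = 0.00196).

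The windows around the starts of these genes are shown because prolactin reaches them through Stat5, which binds the palindrome TTCNNNGAA. In RefSeq promoter windows of 300 bases (250 before to 50 after the annotated start, build GRCm38.p6), 14 of the tested milk protein genes had a window and 5 of them held the palindrome (35.7%): Csn1s1, Csn1s2a, Csn2, Glycam1 and Pigr. Over all 27025 genes with a window, 2582 held it (9.55%). The palindrome reads the same on both strands. Wap, Lalba and Olah had none in these windows. The sequences of 3 genes follow, 5′ to 3′ on the gene's own strand, with the palindrome in capitals. In Csn2 it began 93 bases upstream of the start, in Csn1s1 100 bases and in Glycam1 145 bases upstream. In Csn1s2a, whose window is not printed, it began 20 bases downstream of the start.
Csn2, chr5:87699376-87699675, minus strand: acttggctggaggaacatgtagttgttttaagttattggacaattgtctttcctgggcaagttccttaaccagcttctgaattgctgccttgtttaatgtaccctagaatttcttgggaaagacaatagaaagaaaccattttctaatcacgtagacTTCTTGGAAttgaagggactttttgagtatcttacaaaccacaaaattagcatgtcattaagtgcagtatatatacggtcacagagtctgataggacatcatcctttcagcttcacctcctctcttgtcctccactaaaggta
Csn1s1, chr5:87665958-87666257, plus strand: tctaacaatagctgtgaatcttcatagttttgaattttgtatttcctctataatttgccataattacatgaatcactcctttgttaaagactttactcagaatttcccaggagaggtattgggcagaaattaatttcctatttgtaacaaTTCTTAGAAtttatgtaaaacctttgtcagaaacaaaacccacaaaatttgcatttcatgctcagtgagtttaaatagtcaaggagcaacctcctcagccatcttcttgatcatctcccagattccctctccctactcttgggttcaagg
Glycam1, chr15:103565032-103565331, minus strand: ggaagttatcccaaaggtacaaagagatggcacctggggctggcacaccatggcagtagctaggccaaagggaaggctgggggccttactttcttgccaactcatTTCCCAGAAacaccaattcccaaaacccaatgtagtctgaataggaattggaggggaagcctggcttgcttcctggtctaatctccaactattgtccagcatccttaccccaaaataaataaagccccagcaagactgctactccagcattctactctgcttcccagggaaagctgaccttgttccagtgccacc
These matches are a description of the letters in the windows. Binding was not measured on these arrays.

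**Figure D1:**
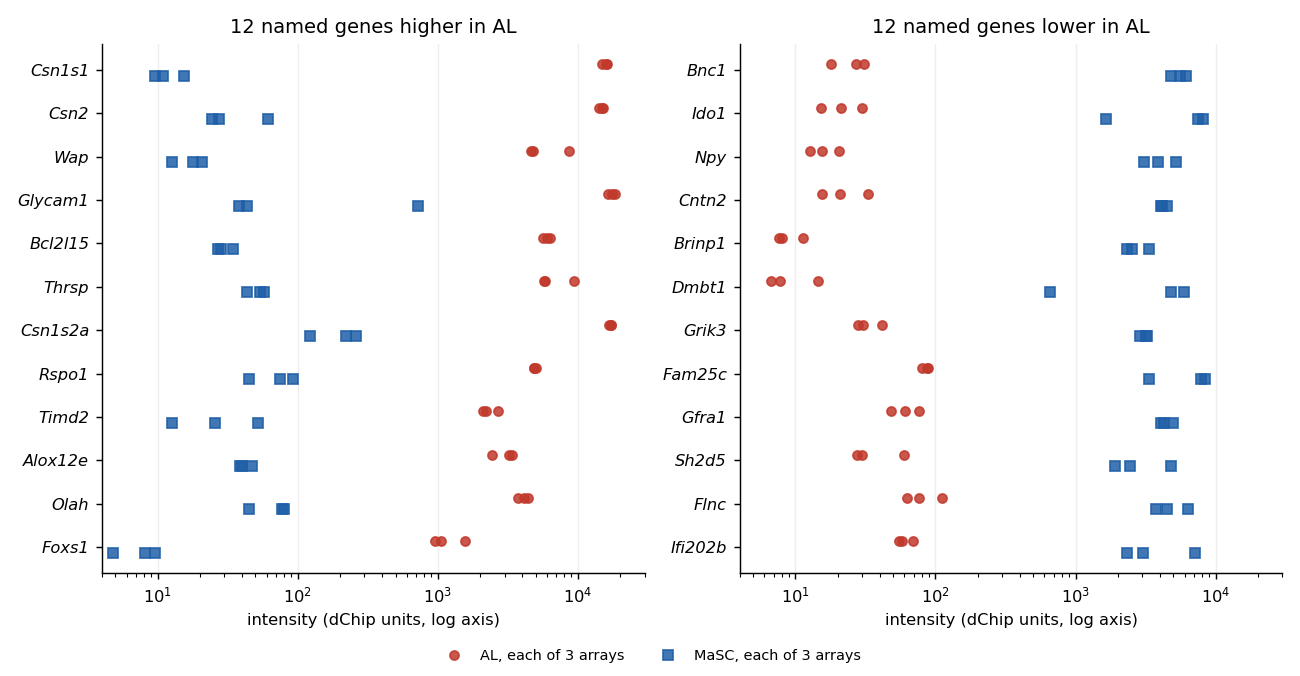
Intensity on each array (log axis) of the 12 named genes with the largest differences in each direction, AL arrays as circles and MaSC arrays as squares. AL and MaSC arrays did not overlap for any of the 24 genes, as the rule for naming them required, and the MaSC arrays spread most for Glycam1 and Dmbt1.

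Of 22 milk protein genes listed, 19 were tested, and 16 of them were higher in ALs (84.2%, against 31.3% of all genes), with a median difference of 4.49 over the 19 genes. Lalba, the regulatory subunit of lactose synthase, was still modest in ALs at 220.4, 666 and 221, against 9.12, 28.3 and 11.1 in MaSCs, with the second AL array well above the others. Olah, the thioesterase that releases fatty acids of medium length, was at 4161, 4376 and 3737 in ALs and at 79.4, 76.9 and 45.03 in MaSCs. Cel, the lipase activated by bile salts, and Pigr, the receptor that carries immunoglobulin A across the epithelium, were higher by 5.96 (SE 0.59, adjusted p = 7.90e-06) and 5.06 (SE 0.38, adjusted p = 1.32e-06). Not every milk gene separated the populations this far. Csn3, the kappa-casein gene, was at 15291, 17092 and 16401 in ALs and already at 13609, 11231 and 9381 in MaSCs, which left a difference of 0.53 (SE 0.12, adjusted p = 0.00319). Wfdc18, a whey acidic protein relative, was likewise bright in both, with a difference of 0.58 (SE 0.12, adjusted p = 0.00135). Mfge8, a protein of the milk fat globule, was at 8759, 9924 and 9004 in ALs and at 10202, 8338 and 8960.1 in MaSCs, and the arrays overlapped. Ltf, the lactoferrin gene, was at 1989, 4558 and 2446 in ALs and at 8955, 5429.6 and 2507 in MaSCs. It did not pass, and AL and MaSC arrays overlapped only through the third MaSC array.

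Other genes among the 12 largest in favour of ALs were not milk proteins. Bcl2l15, a member of the Bcl2 family, was at 5994, 5627 and 6362 in ALs and at 28.2, 34.6 and 26.99 in MaSCs. Rspo1, a secreted protein that strengthens Wnt signals, was at 4866, 5019 and 4858 in ALs and at 75, 44.9 and 92.1 in MaSCs. Both sets of AL arrays were tight and lay far above every MaSC array. Timd2, a cell surface receptor, Alox12e, a lipoxygenase known from the epidermis, and Foxs1, a forkhead transcription factor (TF), were higher by 6.50 (SE 0.54), 6.16 (SE 0.43) and 7.33 (SE 0.44). Foxs1 reached 960 to 1554 in ALs, against 4.84 to 9.63 in MaSCs. The MaSC values of these genes were near background, and with 16 added to each intensity the differences of Timd2, Alox12e and Foxs1 were 5.75, 5.70 and 5.65.

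Genes of fat synthesis followed the milk proteins. Of 25 tested, 17 were higher in ALs (68.0%, against 31.3% of all genes) and 2 were lower (8.0%, against 28.1%). The median difference was 0.87. Thrsp, which promotes the making of fatty acids, was at 5817, 9392 and 5739 in ALs and at 57.8, 54.02 and 43.8 in MaSCs (difference 7.04, SE 0.52, adjusted p = 1.17e-06). Cd36, which takes up fatty acids, and Fabp3, which binds them in the cell, were higher by 5.99 (SE 0.60) and 3.44 (SE 0.34). Mean Cd36 was 3028 in ALs, 96.2 in LPs, 17.0 in MLs and 2180 (standard deviation 1719) in the marked virgin cells. Which cells carried it was not tested. Lpl, the lipase that frees fatty acids from blood lipids, was at 9268, 9853 and 9060.4 in ALs and at 1263, 47.6 and 71.1 in MaSCs. As for Glycam1, the first MaSC array was far above the other two. Enzymes of the pathway itself moved less. Acaca, which makes malonyl-CoA, was at 4083, 5218 and 4032 in ALs and at 1960.0, 2019 and 2238 in MaSCs (difference 1.09, SE 0.13, adjusted p = 2.88e-05), and Srebf1, the TF that drives these enzymes, was higher by 1.43 (SE 0.20, adjusted p = 0.000103). Fasn, the fatty acid synthase, was at 4858, 6118 and 4103 in ALs and at 3716, 4013 and 4788 in MaSCs, which overlap, and did not pass. Both genes that fell were 2-fold or more lower. Dgat2, which completes triglycerides, was at 1116, 1008 and 969.8 in ALs and at 5318, 2948 and 2786 in MaSCs (difference -1.77, SE 0.27, adjusted p = 0.000177), and Mid1ip1, a relative of Thrsp, was lower with a difference of -1.15 (SE 0.20, adjusted p = 0.000446).

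In cholesterol synthesis 8 of 15 genes were higher (53.3%, against 31.3% of all genes) and none was lower. Pmvk, an enzyme of the mevalonate steps, was at 3373, 4122 and 3663 in ALs and at 1079, 705 and 1089 in MaSCs (difference 1.98, SE 0.17, adjusted p = 3.08e-06), and Mvd, the next one, was higher by 2.11 (SE 0.24, adjusted p = 2.53e-05). Sqle, which makes squalene epoxide, was at 2431, 3074 and 2656 in ALs and at 3497, 3199.7 and 3869 in MaSCs and did not pass. Of 12 tested genes of lactose synthesis and sugar supply, 8 were higher (5 by the methods' t-test, run on the 6 AL and MaSC arrays alone) and 1 was lower. As shares, 66.7% were higher and 8.33% lower, against 31.3% and 28.1% of all genes. B4galt1, the catalytic subunit of lactose synthase, was at 8459, 9260.0 and 8732 in ALs and already at 7057, 6793 and 6060.0 in MaSCs, and its difference was small (0.41, SE 0.08, adjusted p = 0.0011). Slc5a1, a sodium-coupled glucose carrier, was higher by 2.20 (SE 0.47, adjusted p = 0.00187), whereas Slc2a1, the main glucose carrier of the gland, was at 10757, 10387 and 10738 in ALs and at 11212, 11439 and 10911 in MaSCs and did not pass.

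The signalling genes upstream of milk differed in both directions. Of 17 tested genes of prolactin and Stat5 signalling, 11 were higher in ALs (64.7%, against 31.3% of all genes) and 4 were lower (23.5%, against 28.1%). Elf5, the ETS factor needed for alveolar differentiation, was at 9177, 11066 and 9881 in ALs and at 1325, 330.3 and 184 in MaSCs (difference 4.54, SE 0.52, adjusted p = 2.38e-05). All AL arrays were far above the MaSC arrays, among which the first was far above the third. Stat5b was at 3806, 3737 and 3579 in ALs and at 1220.0, 1023 and 447 in MaSCs, whereas Stat5a, the main mammary Stat5, was high in both at 7401, 7320.1 and 7171 in ALs and 5447, 5212 and 3917 in MaSCs (differences 2.17, SE 0.28 and 0.60, SE 0.12). Tnfsf11, the RANK ligand that makes neighbouring cells divide, was at 754, 923 and 1145 in ALs and at 36.6, 38.3 and 16.5 in MaSCs (difference 5.03, SE 0.47, adjusted p = 5.92e-06). Its receptor gene Tnfrsf11a was higher by 1.99 (SE 0.37, adjusted p = 0.000679). Igf2, an insulin-like growth factor induced by prolactin in the mouse gland, was at 1845, 2248 and 2270.4 in ALs and at 41.4, 23.3 and 33.7 in MaSCs. Genes that restrain the pathway were among those that fell. Socs3, an inhibitor of cytokine receptors, was at 1313, 1659 and 1365 in ALs and at 5222, 4832 and 6186 in MaSCs (difference -1.90, SE 0.24, adjusted p = 3.98e-05). Cav1, a caveolin reported to hold back Jak2, was at 1100 to 1207 in ALs and at 6291 to 7764 in MaSCs, and Ptpn1, a tyrosine phosphatase, was at 628 to 738 in ALs and at 2558 to 3490 in MaSCs. Cish, an inhibitor induced by Stat5 itself, was higher by 0.95 (SE 0.18, adjusted p = 0.000706), and Jak2 was lower with a difference of -0.49 (SE 0.13, adjusted p = 0.00794).

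Genes of protein secretion moved little. Of 34 tested genes of the entry into the secretory pathway and of vesicle coats, 15 were higher and 3 were lower, with a median difference of 0.23, and 1 was at least 2-fold higher: Sec11c, a subunit of signal peptidase (difference 1.04, SE 0.16, adjusted p = 0.000228). The 15 higher genes were 44.1% of those tested, against 31.3% of all genes, and became 9 by the methods' t-test. The 3 lower genes became 1 under several alternatives, among them without AL replicate 3, without MaSC replicate 2 and with the third MaSC array as the only basal array. Of 24 genes of folding and stress in the endoplasmic reticulum, 9 were higher and 5 were lower, close to the shares of all genes. The 9 became 5 without AL replicate 2. Hspa5, the main chaperone there, was at 10273, 11422 and 10755 in ALs and at 9495, 9510.5 and 10265 in MaSCs and did not pass. The lower genes were Atf6, a stress sensor at 2010.1, 2011 and 1736 in ALs and 3805, 3638 and 4132 in MaSCs, Ern1, another sensor, and Trib3, Herpud1 and Dnajc3, which are induced by such stress. Amino acid transport and transfer RNA charging went the other way from milk synthesis, with 13 of 26 genes lower (against 28.1% of all genes) and 5 higher. The 5 became 3 without AL replicate 2, and centring arrays on their medians turned the 13 into 8. Slc3a2, the shared heavy chain of several amino acid carriers, was at 6762, 7507 and 6867 in ALs and at 10332, 10587 and 11027 in MaSCs (difference -0.60, SE 0.07, adjusted p = 1.71e-05). Slc7a11, the cystine carrier, was at 57.1, 49.04 and 35.1 in ALs and at 413, 661 and 762 in MaSCs. Among the higher genes, Slc38a1, Phgdh, Mars1 and Slc1a4 had differences of 0.31 to 1.02. The largest rise was that of Slc6a14, a carrier of many neutral and cationic amino acids. It was at 1042, 1196 and 1185 in ALs, against 13.2, 40.3 and 2.50 in MaSCs (difference 6.70, SE 0.96, adjusted p = 0.000117). The MaSC values were near background, and with 16 added to each intensity the difference was 5.21. Of 18 ion transport genes 7 were higher (38.9%, near the 31.3% of all genes) and 3 lower (16.7%, against 28.1%). Car6, a secreted carbonic anhydrase, was higher by 5.49 (SE 0.33, adjusted p = 3.05e-07), and Stim1, the calcium sensor of the endoplasmic reticulum, was at 280.1, 306 and 257 in ALs and at 1549, 1532 and 1781 in MaSCs.

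**Figure D2:**
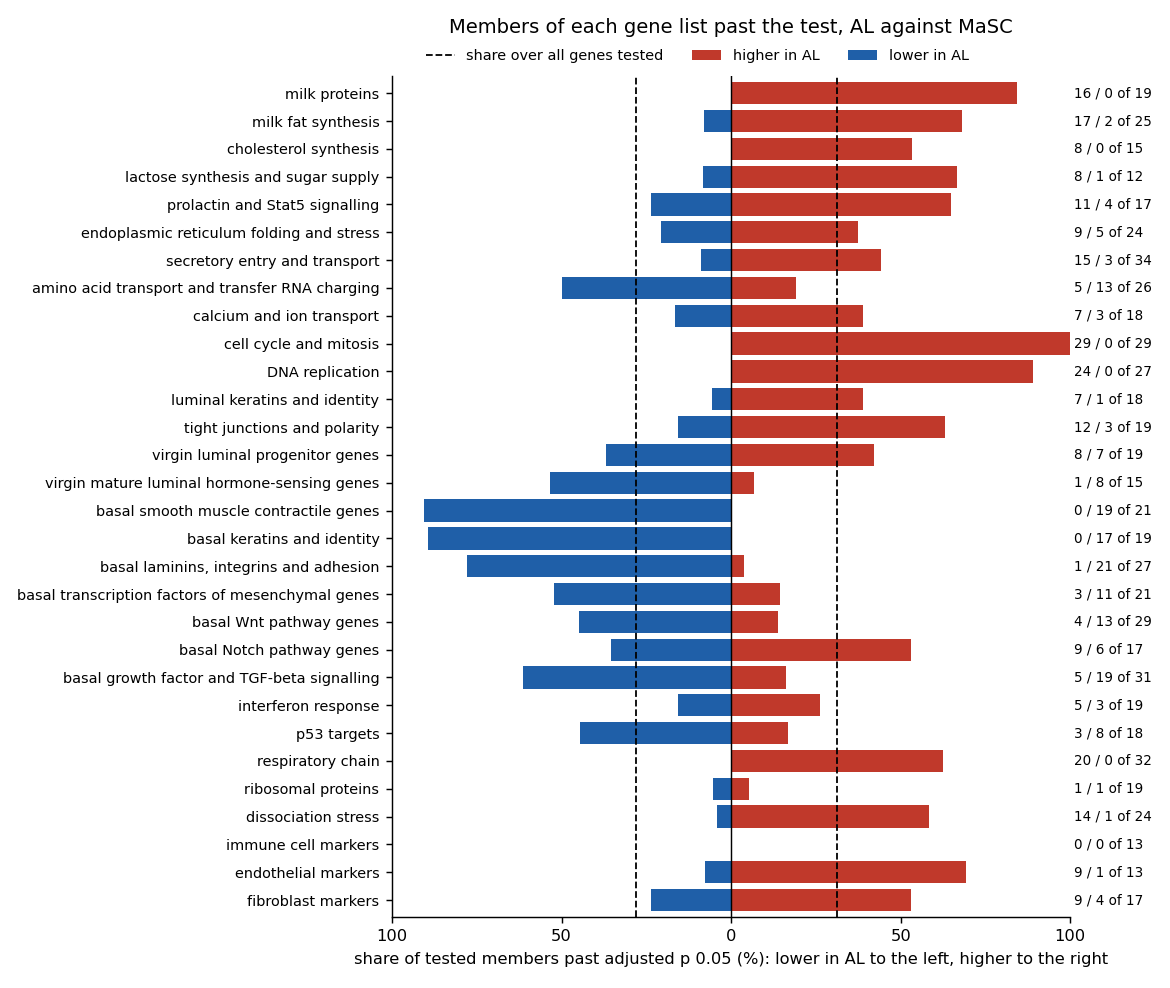
Share of the tested members of each gene list that passed the test, higher in AL to the right and lower in AL to the left, with the counts higher / lower of those tested at the right edge and dashed lines at the shares of all 12143 genes (31.3% and 28.1%). Cell cycle genes (29 of 29), DNA replication genes (24 of 27) and milk proteins (16 of 19) lay farthest to the right. Contractile genes (19 of 21) and basal keratins (17 of 19) lay farthest to the left.

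Cell division set ALs apart from MaSCs as clearly as milk did. All 29 tested genes of the cell cycle and mitosis were higher in ALs, 28 of them at least 2-fold, with a median difference of 3.77. Mki67, the proliferation marker, was at 5443, 4903 and 4731 in ALs and at 328, 41.2 and 262 in MaSCs (difference 5.04, SE 0.95, adjusted p = 0.00079). Kif11, a motor of the spindle, was at 2025, 1404 and 1824 in ALs and at 163, 79.6 and 88.5 in MaSCs (difference 4.05, SE 0.40, adjusted p = 7.72e-06), and Bub1b, of the spindle checkpoint, was at 2314, 2413 and 2371 in ALs and at 267, 93.2 and 154 in MaSCs. The AL arrays were tight, while the MaSC arrays were not. The second MaSC array was the lowest of the MaSC arrays for 24 of the 29 genes, and the mean log2 intensity of the list was 11.29, 11.06 and 11.21 on the AL arrays and 8.45, 6.58 and 7.70 on the MaSC arrays. Ccne1, which acts at the entry into DNA synthesis, had the smallest difference of the list (0.79, SE 0.24, adjusted p = 0.0137). All 29 passed when any 1 array was left out, except that 28 did without MaSC replicate 3. LPs and MLs of the virgin gland were also low, with mean Mki67 intensities of 394 and 299.

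DNA replication genes agreed in direction but had smaller differences. Of 27 tested, 24 were higher and none was lower, with a median difference of 1.43. Prim1, the DNA primase, was at 6707, 6174 and 6729 in ALs and at 1392, 736 and 1210.0 in MaSCs (difference 2.60, SE 0.23, adjusted p = 3.25e-06). Mcm10 and Cdc45, which fire replication origins, were higher by 3.44 (SE 0.36) and 3.43 (SE 0.45), and the subunits Mcm2, Mcm3, Mcm5, Mcm6 and Mcm7 of the replicative helicase by 0.89 to 2.62. Pcna, the sliding clamp, was at 9103, 8313 and 8885 in ALs and at 8271, 8462 and 9028 in MaSCs. Its arrays overlapped and it did not pass, nor did Mcm4, another helicase subunit.

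Basal keratins and identity genes were lower in ALs in 17 of 19 cases (89.5%, against 28.1% of all genes), with a median difference of -2.71, and none was higher. Krt5 was at 749, 1093 and 873 in ALs and at 9061, 8894 and 9884 in MaSCs (difference -3.37, SE 0.69, adjusted p = 0.00133). Krt14, its partner in the filaments of basal cells, was at 3232, 4365 and 3731 in ALs and at 13199, 13476 and 13007 in MaSCs (difference -1.82, SE 0.57, adjusted p = 0.0163). Trp63, the TF p63 on which basal identity depends, was at 352, 387 and 480.3 in ALs and at 4909, 7822 and 4169 in MaSCs (difference -3.75, SE 0.50, adjusted p = 6.54e-05). No AL array reached any MaSC array in these genes. Lgr5, a receptor of R-spondins and a stem cell marker in several tissues, was at 22.7, 28.3 and 23.1 in ALs and at 1963, 1762 and 1340.0 in MaSCs (difference -6.08, SE 0.37, adjusted p = 3.05e-07). Vsnl1, a calcium sensor protein, Krt15 and Mme, the peptidase CD10 of myoepithelial cells, were lower with differences of -4.86 (SE 0.32), -3.56 (SE 0.26) and -3.52 (SE 0.28). Lgr6, the relative of Lgr5, was at 4411, 4507 and 3620.5 in ALs and at 5289, 4683 and 4074 in MaSCs. It overlapped and did not pass, and Thy1 did not pass either.

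The contractile apparatus was lower in ALs in 19 of 21 genes (90.5%) and higher in none, with a median difference of -1.97. Myh11, the heavy chain of smooth muscle myosin, was at 379, 673 and 471 in ALs and at 5995, 6484 and 6384 in MaSCs (difference -3.67, SE 0.80, adjusted p = 0.00205). Cnn1, calponin, was at 328, 505 and 431 in ALs and at 5775, 6071 and 7269.8 in MaSCs, and Lmod1, which nucleates actin filaments in smooth muscle, was at 89.3, 229 and 167 in ALs and at 2139.9, 1747 and 2895 in MaSCs (differences -3.93, SE 0.95 and -3.88, SE 0.50). Some abundant members kept much of their level. Acta2, smooth muscle actin, was at 6946, 8619 and 7717 in ALs and at 16568, 16933 and 16364 in MaSCs (difference -1.10, SE 0.40, adjusted p = 0.0327), and Mylk, the kinase of the myosin light chain, was at 4539, 5131 and 4518 in ALs and at 11719, 11946 and 12165 in MaSCs. Oxtr, the oxytocin receptor, was at 5034, 5149 and 4367 in ALs and at 7505, 8393 and 7638 in MaSCs. The groups did not overlap for Oxtr, but it did not pass (difference -0.70, SE 0.56, adjusted p = 0.301). That SE draws on the spread over all 15 arrays, not only on these 2 populations. The mean intensities of Acta2, Mylk and Oxtr were 483, 145 and 631 in LPs and 328, 217 and 211 in MLs, all far below those in ALs. Of the 21 genes, 15 had a higher mean in ALs than in both LPs and MLs, against 4093 of all 12143 genes. Pdlim7, Actn1 and Tpm1 went the other way. Their means were 559, 6166 and 7468 in ALs, 2115, 8402 and 10259 in LPs and 2095, 7375 and 8397 in MLs. Mean Lmod1 was 162 in ALs and 157 in the marked virgin cells. The summed intensity of the list was 56030 to 64740 in ALs and 151900 to 164400 in MaSCs. How far cells of the basal layer in the AL sort account for these levels was not tested.

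Serum response factor, which drives many contractile genes, binds the CArG box. Among 18 tested contractile genes with a RefSeq promoter window, 1 held a CArG box (5.56%), against 488 of 27025 genes (1.81%). It was Myl9, a regulatory light chain of myosin, which was at 1299, 1944 and 1725 in ALs and at 10137, 10234 and 11221 in MaSCs (difference -2.69, SE 0.59, adjusted p = 0.00211). The box is in capitals in its window and begins 161 bases upstream of the start.
Myl9, chr2:156775214-156775513, plus strand: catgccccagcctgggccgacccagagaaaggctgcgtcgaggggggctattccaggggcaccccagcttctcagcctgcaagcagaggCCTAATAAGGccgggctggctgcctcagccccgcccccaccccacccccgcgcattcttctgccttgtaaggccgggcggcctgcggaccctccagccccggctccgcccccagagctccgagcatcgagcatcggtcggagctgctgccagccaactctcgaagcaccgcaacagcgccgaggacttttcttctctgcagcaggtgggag
Srf itself was higher in ALs by 0.40 (SE 0.13, adjusted p = 0.0188), at 4131, 5122 and 4846 in ALs and 3751, 3526 and 3398 in MaSCs, while its cofactor gene Mrtfa was at 892, 1058 and 810.4 in ALs and at 3272, 2610.0 and 4706 in MaSCs (difference -1.91, SE 0.21, adjusted p = 1.56e-05).

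**Figure D3:**
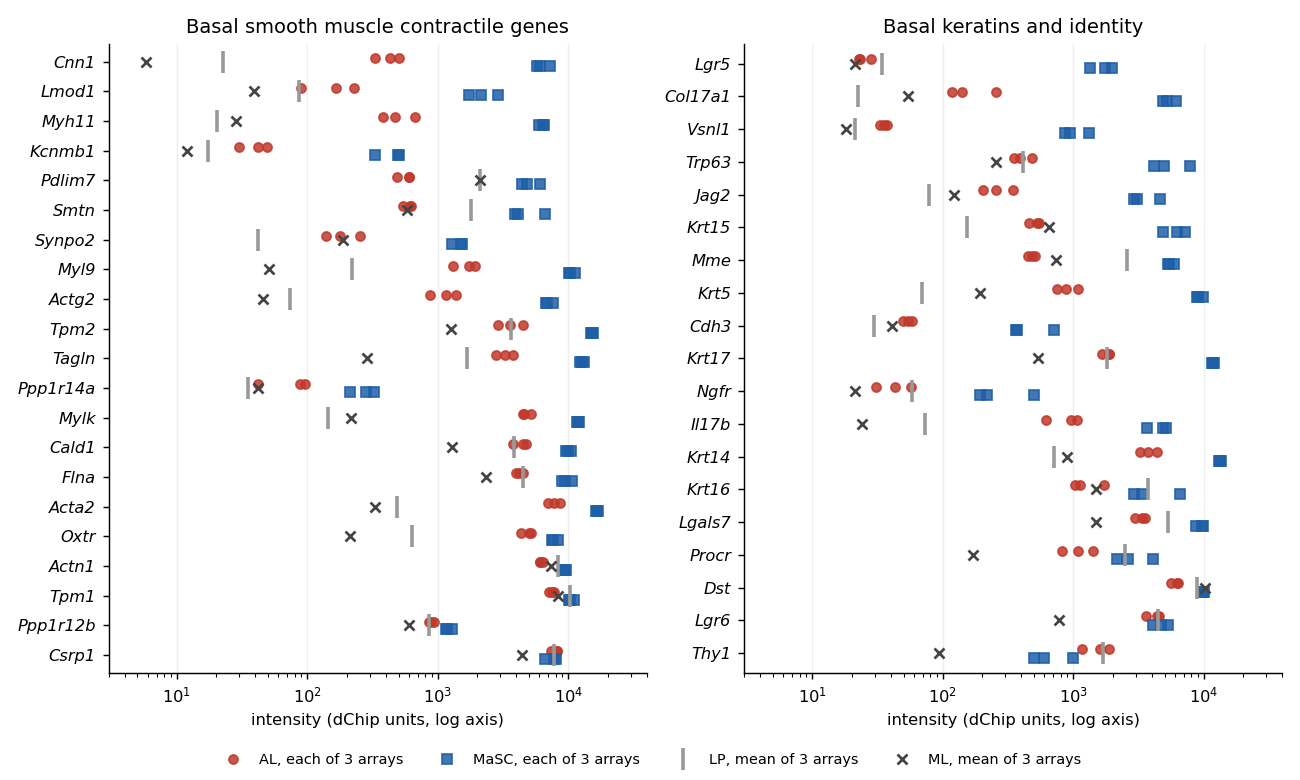
Intensity (log axis) of the 21 contractile genes and the 19 genes of basal keratins and identity, AL arrays as circles, MaSC arrays as squares, with the means of LP (bars) and ML (crosses) beside them. AL arrays lie below MaSC arrays for most genes, and for Acta2, Mylk, Oxtr and Krt14 they lie well above the LP and ML means.

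Genes through which basal cells build and grip the basement membrane were lower in 21 of 27 cases (77.8%) and higher in 1, with a median difference of -1.43. Lama3, an alpha chain of the laminin under basal cells, was at 289, 423 and 327 in ALs and at 5431, 5864 and 7261 in MaSCs (difference -4.17, SE 0.24, adjusted p = 2.23e-07). Its partner Lamb3 was lower with a difference of -1.90 (SE 0.34, adjusted p = 0.000519). Itga9, an integrin chain, was at 28.98, 47.01 and 35.3 in ALs and at 1677, 1838 and 2496 in MaSCs, and Itga3, which binds laminin, was at 1409, 1532 and 1501 in ALs and at 5993, 6609.6 and 8724 in MaSCs. In each of these the groups were far apart. Itga6, which is found in both layers, was at 8011, 7960.2 and 7717 in ALs and at 8879, 9575 and 8340.5 in MaSCs and did not pass. Itgb6, an integrin chain of epithelia, was the only member that rose (difference 1.78, SE 0.38, adjusted p = 0.00192). Cdh3, the cadherin of basal cells, was lower with a difference of -3.09 (SE 0.27, adjusted p = 3.64e-06).

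The surface proteins used for sorting were checked in their genes. Itgb1, which encodes CD29, was at 2634, 2323 and 2381 in ALs and at 3337, 4012 and 4047 in MaSCs (difference -0.63, SE 0.10, adjusted p = 0.000203). Cd24a was at 14055, 14772 and 14069 in ALs and at 15054, 14591 and 12908 in MaSCs and did not pass. Itgb3, which encodes CD61, was lower with a difference of -1.98 (SE 0.22, adjusted p = 1.71e-05). Since MaSCs were gated for high CD29, Itgb1 was not independent of the sort.

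The count of higher luminal genes depended on the setting. Of 18 genes of luminal keratins and identity, 7 were higher in ALs (38.9%, near the 31.3% of all genes) and 1 was lower. Among the MaSC arrays, 17 of the 18 were highest on the first and 16 lowest on the third. With the third MaSC array as the only basal array, an alternative chosen after seeing the data, 12 were higher, and by the methods' t-test 2 were. Krt8 was at 14067, 14925 and 15029.6 in ALs and at 14254, 12949.5 and 13366 in MaSCs, and Krt18, its partner, at 16421, 16396 and 17179 in ALs and at 16298, 15714 and 14294 in MaSCs. Neither passed, nor did Krt19, Epcam or Cdh1. Those that rose were surface and junction proteins and TFs: Muc1, Cldn3, Cldn4, Cldn7, St14, Ehf and Grhl2, the last of which lost its direction when the probe sets of a gene were averaged (-0.0481, adjusted p = 0.763). Cldn3, a claudin, was at 8445, 7725 and 8776 in ALs and at 4561, 2751 and 1359.7 in MaSCs (difference 1.69, SE 0.31, adjusted p = 0.000618), and the MaSC arrays spread widely. The gene that fell was Prom1, a marker of hormone-sensing cells, at 354, 378 and 545 in ALs and at 6819, 4300.2 and 1519 in MaSCs (difference -3.08, SE 0.42, adjusted p = 8.60e-05).

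Tight junction and polarity genes separated the populations more than the luminal keratins did, with 12 of 19 higher (63.2%, and 7 by the methods' t-test) and 3 lower (0 when arrays were centred on their medians) and a median difference of 1.49. Tjp3, a scaffold of the junction, was at 4058, 4544 and 3742 in ALs and at 664, 295 and 211 in MaSCs (difference 3.57, SE 0.35, adjusted p = 7.59e-06). Cgn, cingulin, was at 6885, 7243 and 6762 in ALs and at 1928, 899 and 296 in MaSCs, and Cgnl1, its relative, was at 2962, 3018 and 2671 in ALs and at 1051, 876 and 857 in MaSCs. All AL arrays were above all MaSC arrays for 12 of the 19 genes and below them for 3. Of the 19 genes, 16 had their lowest MaSC value on the third array. Tjp1, the scaffold ZO-1 that many cell types use, was at 7611, 7059.7 and 7275 in ALs and at 6677, 7062 and 6193 in MaSCs and did not pass.

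Genes known from the virgin luminal subsets moved in both directions. Of 15 tested hormone-sensing genes of MLs, 8 were lower in ALs (53.3%, against 28.1%) and 1 was higher, with a median difference of -1.34. Pgr, the progesterone receptor, was at 529, 427 and 584 in ALs and at 5376, 3853 and 1343 in MaSCs (difference -2.57, SE 0.39, adjusted p = 0.000163), and Cxcl15, a chemokine, was at 109, 155 and 143 in ALs and at 6385, 3645 and 1154 in MaSCs. Stc2, a secreted glycoprotein, was lower with a difference of -2.09 (SE 0.22, adjusted p = 1.21e-05). For Pgr and Cxcl15 the third MaSC array was nearest to the ALs, and both genes were brightest in MLs, with means of 8576 and 10345. Over the whole list the mean log2 intensity was 9.22, 9.27 and 9.28 on the AL arrays and 10.97, 10.64 and 9.89 on the MaSC arrays. Foxa1, a partner of the oestrogen receptor, turned on this: it was at 1201, 1125 and 1151 in ALs and at 4731, 3211 and 981 in MaSCs, with a difference of -1.09 (SE 0.42, adjusted p = 0.0426), and of 0.24 (adjusted p = 0.366) with the third MaSC array as the only basal array. How far luminal cells in the MaSC sort account for such values was not tested. Tbx3, a T-box TF, was even over the MaSC arrays, at 919, 952 and 992 in ALs and at 4502, 4485 and 4526 in MaSCs. Wnt5a, a Wnt ligand, was at 213, 305 and 204 in ALs and at 3167, 3315 and 2003 in MaSCs, with the third array again the lowest. Tnfsf11, in the virgin gland a product of hormone-sensing cells, was the member that rose.

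Of 19 genes of LPs, 8 were higher in ALs (42.1%, against 31.3%) and 7 lower (36.8%, against 28.1%), with a median difference of 0.01. Lbp, which binds lipopolysaccharide, was at 3796, 5870.5 and 3994 in ALs and at 215, 50.6 and 91.2 in MaSCs, and Cyp24a1, which breaks down vitamin D, was at 2228, 1713 and 2380.1 in ALs and at 84.1, 51.5 and 60.1 in MaSCs (differences 5.48, SE 0.42 and 5.03, SE 0.55). Kit, the receptor that marks LPs, was at 4439.5, 4170.1 and 4348 in ALs and at 1980.3, 1227 and 598 in MaSCs. Cxcl1, a chemokine, and Tspan8, a tetraspanin, were lower with differences of -1.31 (SE 0.20) and -0.79 (SE 0.19). Krt15 and Itgb3, also among the lower genes, are counted in lists of basal genes as well. Mean Krt15 was 153 in LPs, far below the 6089 in MaSCs. The 7 lower genes became 4 when arrays were centred on their medians and 3 with the third MaSC array as the only basal array.

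**Figure D4:**
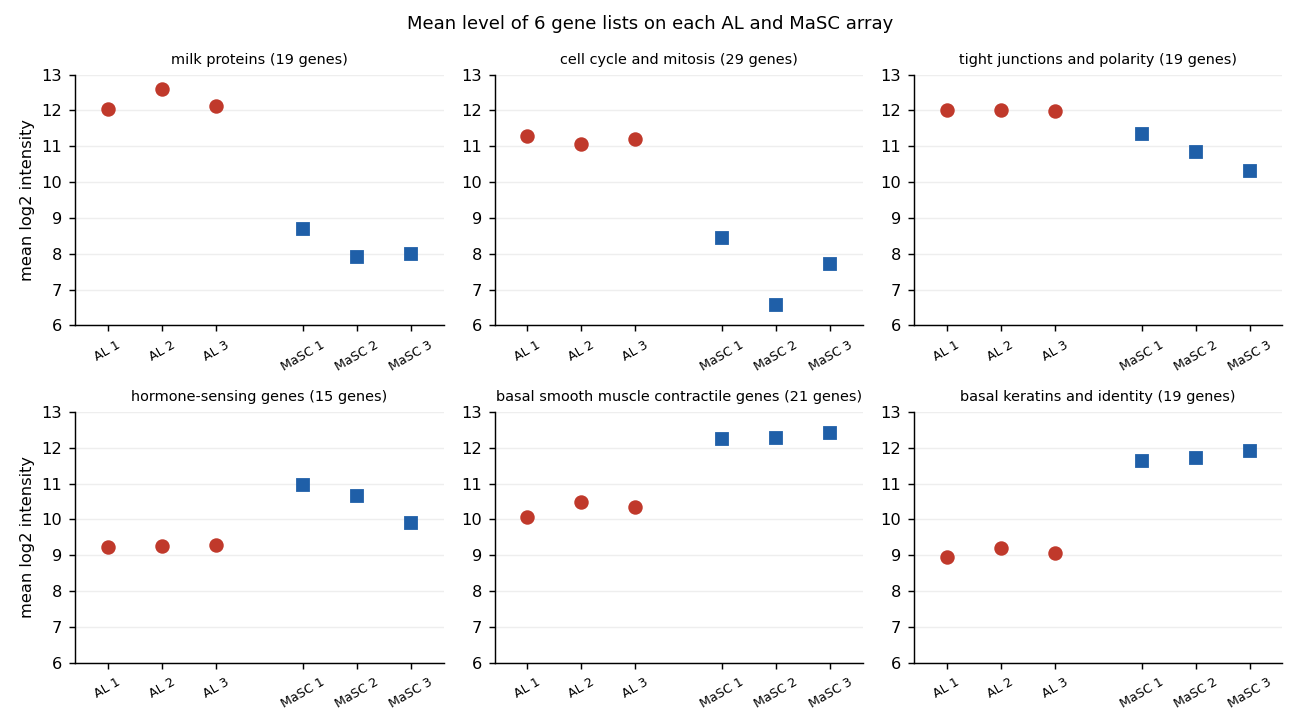
Mean log2 intensity over the tested members of 6 gene lists on each array, AL arrays as circles and MaSC arrays as squares. The MaSC arrays spread for cell cycle genes (8.45, 6.58 and 7.70) and for hormone-sensing genes (10.97, 10.64 and 9.89). The AL arrays were uneven for milk proteins (12.04, 12.60 and 12.11) and contractile genes (10.06, 10.48 and 10.34), with the second array highest. For contractile genes the MaSC arrays lay closer together (12.24, 12.27 and 12.42).

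Of a panel of 24 mammary TFs, 22 were tested, and 8 were higher (5 by the methods' t-test) and 7 lower in ALs. These shares of 36.4% and 31.8% were near the 31.3% and 28.1% of all genes. Runx1, a TF of the Runt family, was at 1388, 967 and 1146 in ALs and at 5859, 6306 and 6725 in MaSCs (difference -2.45, SE 0.13, adjusted p = 1.62e-07), and each of its 5 tested probe sets was lower. Its mean was 3397 in LPs and 4908 in MLs. Cbfb, which encodes the common partner of Runx proteins, was at 5214, 4353 and 4797 in ALs and at 5422, 6488 and 4452 in MaSCs. It overlapped and did not pass. Snai2, a repressor of epithelial genes active in basal cells, was at 472, 519 and 424 in ALs and at 6976, 7298 and 7096 in MaSCs (difference -3.92, SE 0.61, adjusted p = 0.000202), and Id4, an inhibitor of helix-loop-helix factors, was at 747, 968 and 927 in ALs and at 4976, 5533 and 5833 in MaSCs (difference -2.63, SE 0.49, adjusted p = 0.000684). Ehf, a relative of Elf5, was at 9004, 8240.3 and 8892 in ALs and at 4009, 2765 and 696 in MaSCs (difference 2.14, SE 0.47, adjusted p = 0.00218). Id2, another inhibitor of helix-loop-helix factors, and Xbp1, a TF of secretory cells, were higher by 1.13 (SE 0.30) and 0.24 (SE 0.08). Sox9, Sox10 and Gata3 did not pass. Sox10 was at 8599, 8610.2 and 8046 in ALs and at 7009, 7274 and 8069.7 in MaSCs, Gata3 at 4969, 5177 and 4609 in ALs and at 5224, 5413 and 5369.7 in MaSCs. Esr1, the oestrogen receptor, was at 4017, 2898 and 2839 in ALs and at 6683, 5090.2 and 2779 in MaSCs, and neither it nor Cited1, its coactivator, passed.

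**Figure D5:**
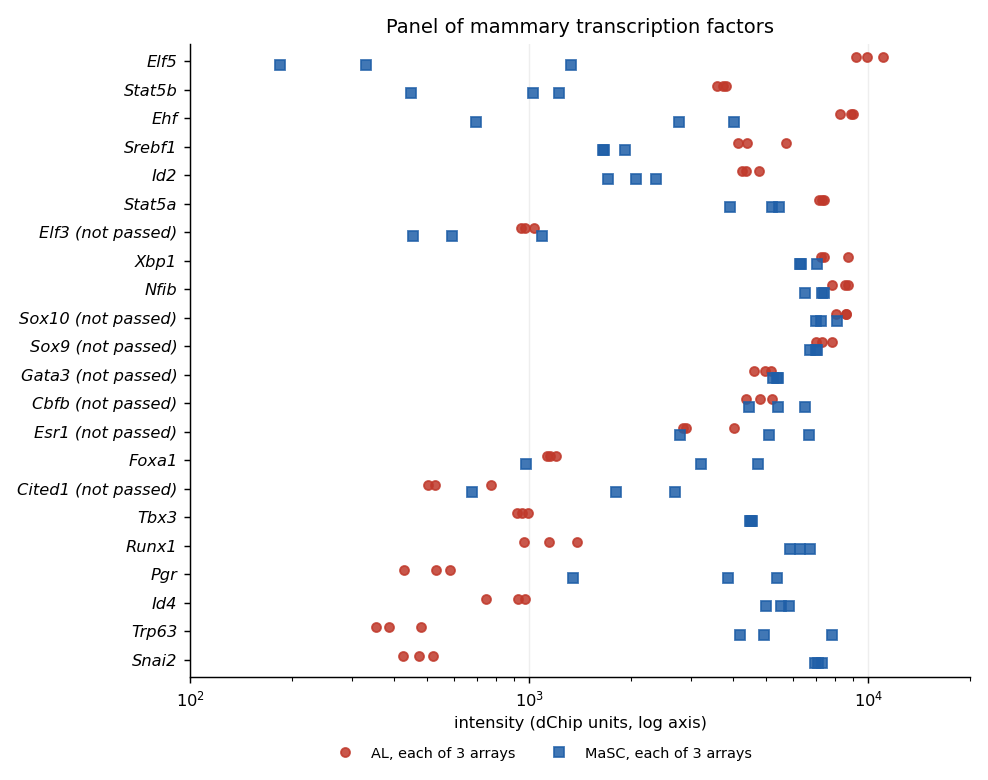
Intensity on each array (log axis) of the 22 tested TFs of the panel, ordered by difference, AL arrays as circles and MaSC arrays as squares. Elf5 and Stat5b lie at the top with the largest differences in favour of AL and Snai2 and Trp63 at the bottom, and the MaSC arrays spread widely for Elf5, Ehf, Foxa1, Cited1 and Pgr.

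TFs that act on mesenchymal genes were lower in 11 of 21 cases (52.4%) and higher in 3. Beside Snai2, Irx4, an Iroquois factor, was at 106, 324 and 149 in ALs and at 2114, 2532 and 2763 in MaSCs. Tead1 and Yap1, which work together in the Hippo pathway, were lower with differences of -1.35 (SE 0.15) and -0.56 (SE 0.09). For each of them 1 of 2 tested probe sets passed. The genes that rose were Twist2 and Zeb1, in addition to Srf. Zeb1 was at 741, 623 and 528 in ALs and at 116, 166 and 78.9 in MaSCs (difference 2.44, SE 0.53, adjusted p = 0.00189), and Twist2 at 297, 209 and 92.8 in ALs and at 12.4, 3.44 and 1.76 in MaSCs. Fibroblast genes moved with them in part, with 52.9% of the tested markers higher and 23.5% lower, against 31.3% and 28.1% of all genes. Of 17 tested fibroblast markers 9 were higher in ALs and 4 lower (2 without AL replicate 3, and 1 with the third MaSC array as the only basal array), and their summed intensity was 41770 to 57340 in ALs and 32410 to 38910 in MaSCs. Col1a1, a chain of type I collagen, was at 8584, 7504 and 6907 in ALs and at 316, 721 and 569.8 in MaSCs (difference 3.91, SE 0.32, adjusted p = 2.05e-06), and Lum, lumican, at 3256, 2778 and 2102 in ALs and at 61.2, 21.7 and 83.7 in MaSCs. The means of Lum and Col1a1 in LPs were 3214 and 4847, so this signal was not particular to the AL sort. Postn, periostin, and Mmp2, a matrix protease, went the other way, with Postn at 3786, 4582 and 3611 in ALs and 10636, 11422 and 11267 in MaSCs. No fibroblast marker was at 0 on any of the 6 arrays. The part of fibroblasts in these differences was not tested.

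Wnt pathway genes were lower in 13 of 29 cases (44.8%) and higher in 4. Among ligands, Wnt10a was at 62.8, 179.6 and 117 in ALs and at 3259.5, 3610.0 and 4663 in MaSCs (difference -5.12, SE 0.88, adjusted p = 0.000418), and Wnt11 at 43.7, 54.2 and 50.9 in ALs and at 1425, 1065 and 1635 in MaSCs (difference -4.78, SE 0.37, adjusted p = 1.50e-06). Both were near background in ALs. Among receptors, Fzd4 and Fzd1 were lower with differences of -2.75 (SE 0.33) and -1.86 (SE 0.23). The secreted inhibitor Sfrp1 was at 723, 724 and 445 in ALs and at 6143, 5710.4 and 7410.3 in MaSCs. Axin2, a direct target of the pathway, was at 556, 537 and 482 in ALs and at 435, 671 and 415 in MaSCs, which overlap, and did not pass. Rspo1, Tcf7l2, Wnt6 and Wnt5b were the genes that rose. They became 2 with the third MaSC array as the only basal array.

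Of 17 tested genes of the Notch pathway, 9 were higher in ALs (52.9%, against 31.3% of all genes) and 6 lower (35.3%, against 28.1%). Among ligands, Jag1 was at 1759, 1722 and 1766 in ALs and at 10522, 11749.6 and 11022 in MaSCs (difference -2.66, SE 0.26, adjusted p = 7.33e-06), Jag2 at 203, 342 and 253 in ALs and at 2895, 3063 and 4627 in MaSCs (difference -3.73, SE 0.65, adjusted p = 0.000449), and Dll1 at 162, 187 and 214 in ALs and at 2312, 3533 and 1928 in MaSCs (difference -3.75, SE 0.51, adjusted p = 7.67e-05). All 3 tested ligand genes were lower in ALs. The receptor gene Notch1 was at 7327, 7829 and 6950.1 in ALs and at 4499, 3438 and 3943 in MaSCs (difference 0.90, SE 0.11, adjusted p = 4.13e-05), and the target genes Hes1, Hey1, Hey2 and Heyl were higher by 0.77 to 1.80. Rbpj, through which Notch acts on DNA, was lower at 2921, 2746 and 2666 in ALs, against 7196, 7189.5 and 7677 in MaSCs. Lfng, which modifies Notch receptors, and Maml1, a coactivator that works with Rbpj, were also lower, with differences of -2.79 (SE 0.60) and -0.52 (SE 0.06). The 9 higher genes became 5 without MaSC replicate 2, 5 by the methods' t-test and 4 with the third MaSC array as the only basal array.

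Growth factor and TGF-beta genes were lower in 19 of 31 cases (61.3%) and higher in 5 (3 with the third MaSC array as the only basal array), with a median difference of -0.96. Nrg1, a ligand of ErbB receptors, was at 29.6, 32.1 and 45.97 in ALs and at 808, 1616 and 1142 in MaSCs (difference -5.02, SE 0.54, adjusted p = 1.54e-05), whereas the receptor gene Erbb3 was at 9863, 9104 and 9674 in ALs and at 7140.4, 4829 and 2183 in MaSCs (difference 1.18, SE 0.30, adjusted p = 0.00567). Fgfr2 was at 1407, 1221 and 1421 in ALs and at 9433, 9389 and 8543 in MaSCs (difference -2.76, SE 0.16, adjusted p = 2.23e-07), and Fgfr1 at 1399.8, 1569 and 1398 in ALs and at 4987, 4811 and 6279 in MaSCs. Both receptors of fibroblast growth factors were lower on all AL arrays, and so was the ligand Fgf1 (difference -3.11, SE 0.31). Tgfa, a ligand of the EGF receptor, and Smad7, an inhibitor of TGF-beta signals, were lower with differences of -2.54 (SE 0.21) and -1.23 (SE 0.12). Bmp2 was the largest of the genes that rose, at 2434, 1469 and 2113 in ALs and 476, 454 and 421 in MaSCs (difference 2.13, SE 0.39, adjusted p = 0.000631).

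The genes that differed most in favour of MaSCs were of 2 kinds. Bnc1, a zinc finger protein of basal keratinocytes, was at 31.1, 17.8 and 27.1 in ALs and at 4783, 5562 and 6167 in MaSCs (difference -7.79, SE 0.42, adjusted p = 1.31e-07). Npy, neuropeptide Y, was at 12.6, 20.5 and 15.6 in ALs and at 3882, 3060.0 and 5219 in MaSCs, and Cntn2, an adhesion protein known from axons, at 32.9, 15.6 and 20.9 in ALs and at 4139, 4043 and 4481 in MaSCs. These genes were bright on every MaSC array. Several of the others of this kind are also known from neurons, such as Brinp1 (difference -8.26, SE 0.35), Grik3, a glutamate receptor subunit (difference -6.56, SE 0.47), and Gfra1, a receptor of glial cell-derived neurotrophic factor (difference -6.19, SE 0.34). Flnc, a filamin that crosslinks actin, was at 76.1, 112 and 62.1 in ALs and at 3767, 4484 and 6314 in MaSCs. The second kind was uneven over the MaSC arrays and brightest in MLs. Ido1, which degrades tryptophan, was at 30.1, 21.2 and 15.1 in ALs and at 8073, 7503 and 1655 in MaSCs, with a mean of 14328 in MLs. Dmbt1, a secreted scavenger receptor, was at 7.80, 6.71 and 14.4 in ALs and at 5919, 4811 and 654 in MaSCs, with a mean of 12090.0 in MLs. Fam25c was at 87.7, 80.4 and 88.4 in ALs and at 8376, 7920.2 and 3360.4 in MaSCs, with a mean of 14356 in MLs. Even the third MaSC array was far above the ALs for these genes.

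Markers of other cell types were also measured in ALs, from near background to bright. Of 13 tested endothelial markers 9 were higher in ALs and 1 was lower (0 with the third MaSC array as the only basal array), with a summed intensity of 3461 to 4337 in ALs and 1269 to 1786 in MaSCs. Over the endothelial list 69.2% were higher and 7.69% lower, against 31.3% and 28.1% of all genes. Ptprb, a phosphatase of endothelial cells, was at 513, 530.3 and 601 in ALs and at 61.04, 66.6 and 85.4 in MaSCs (difference 2.96, SE 0.45, adjusted p = 0.000166). Mean Ptprb was 146 in LPs, 65.4 in MLs and 2470 (standard deviation 2255) in the marked virgin cells. Mean Tek, another endothelial marker, was 248 in ALs, 544 in LPs, 17.9 in MLs and 1833 in the marked virgin cells. These signals were thus not particular to ALs. Pecam1, which encodes the lineage marker CD31, was too dim to be tested, at 70.5, 71.8 and 103 in ALs and at 15.9, 12.6 and 13.5 in MaSCs. None of 13 tested immune markers passed by limma (0 also at an unadjusted p under 0.05), although all AL arrays were above all MaSC arrays for 10 of them. Their summed intensity was 9026 to 12190 in ALs and 3796 to 7095 in MaSCs. With only the 6 AL and MaSC arrays in the fit, 9 were higher in ALs, and the same number without the 3 arrays of marked virgin cells, an alternative chosen after seeing the data. Of the 13, 5 were higher by the methods' t-test and 4 with array weights. Ptprc, which encodes CD45, was also too dim to be tested, at 77.9, 93.6 and 67.2 in ALs and at 19.1, 15.7 and 24.04 in MaSCs. No endothelial or immune marker was at 0 on any of the 6 arrays. Fabp4, which adipocytes and capillaries make, was at 4633, 5226 and 5018 in ALs and at 100.1, 389.9 and 157 in MaSCs, while Adipoq, the adipocyte hormone, was too dim to be tested in both. Mean Fabp4 was 705 in LPs, 34.6 in MLs and 9857 in the marked virgin cells. The part of these cells in the differences described was not tested.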

How the data were processed

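RNA of sorted cells was amplified with the NuGEN Ovation V2 kit and hybridised to Affymetrix Mouse Genome 430 2.0 arrays. The authors normalised the arrays with dChip, and the sources used here do not give its version, model or baseline array. The deposited values are linear intensities. These are not counts, so the number of arrays limits the precision. Scan dates were not used here, and batches could not be examined.

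Intensities were floored at 1 and taken to log2. Of 45101 probe sets, 34945 had 1 gene symbol in the platform annotation, 932 had several and 9160 had none. Probe sets above their array's median on at least 3 of 15 arrays were kept, and each gene was represented by the one with the highest mean, which left 12143 genes. limma 3.58.1 in R 4.3.3 fitted 1 mean per population to all 15 arrays (lmFit, eBayes), with two-sided Benjamini-Hochberg adjusted p-values over all genes. Tested on simulated data, the script was checked for recovery of known changes. Of the genes that passed, 264 had another probe set that passed in the opposite direction. Some named genes had a tested probe set that did not pass, among them Jak2, Tnfrsf11a and Fabp3, each with 1 of 2 passing.

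Named genes were the 12 with the largest difference in each direction after adding 16 to intensities, among those past the test, without overlap and with a brighter mean of at least 1000, all TF panel and sorting genes, and up to 6 per direction in each gene list. Other genes named were chosen after their values were seen. Members and lists were chosen with earlier results of these data known. Some genes belong to several lists, among them Elf5, Tnfsf11, Prom1, Wnt5a, Tbx3, Krt15 and Itgb3, and are counted in each. Python 3.11.15 with pandas 2.3.3, numpy 2.4.6 and matplotlib 3.10.9 was used for summaries and plots. Promoter windows are RefSeq's for GRCm38.p6. Alternatives covered the arrays in the fit, each array left out, the offset, floor, filter, normalisation, probe set choice, array weights, the replicate number as a block and the methods' t-test.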

Additional observations from a re-analysis of the deposited data

How the results depend on the processing

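The counts of genes past the test held within 1.5 times under all alternatives tried. Against 7212 genes, 6291 to 6969 passed when 1 array was left out, 6775 with only the 6 AL and MaSC arrays, 7643 of 18193 without the filter on dim probe sets, 8244 with array weights and 6055 by the methods' t-test after Benjamini-Hochberg adjustment (7166 before it). With arrays centred on their medians 6992 passed, of which 60.51% were higher in ALs, against 52.72%. Deviations of same-numbered AL and MaSC arrays correlated at -0.04, -0.11 and -0.08. Taken from means of 3 arrays, these cannot show whether the replicate numbers pair the samples. With the replicate number as a block 6924 genes passed, 6865 of them shared. Alternatives chosen after seeing the data gave 7650 genes without the 3 arrays of marked virgin cells and 6236 with the third MaSC array as the only basal array, where the lone array is assumed to vary like the other groups. The difference of Grhl2 turned to -0.0481 (adjusted p = 0.763) with the mean of a gene's probe sets, and that of Foxa1 to 0.24 (adjusted p = 0.366) with the third MaSC array only. The cause was not tested. By the methods' t-test, the genes higher in ALs numbered 5 of 12 for lactose synthesis, 9 of 34 for secretion, 2 of 18 for luminal identity, 7 of 19 for tight junctions, 5 of 17 for the Notch pathway and 5 of 22 for the TF panel.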

Other observations

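Targets of p53 were lower in ALs in 8 of 18 cases (44.4%) and higher in 3. Cdkn1a, which halts the cell cycle, was at 2702, 2266 and 2930.5 in ALs and at 8626, 8121 and 10544 in MaSCs (difference -1.79, SE 0.13, adjusted p = 1.14e-06), and Phlda3, an inhibitor of Akt, was at 136, 245 and 214 in ALs and at 3954, 4541 and 4387 in MaSCs. Both groups of arrays lay far apart for these genes. Btg2, which restrains proliferation, was at 6987, 8211 and 7767 in ALs and at 1944, 1129 and 1054 in MaSCs. With the third MaSC array as the only basal array, 7 targets were higher in place of 3. Of 24 genes that respond to cell dissociation, a list that also holds Btg2, 14 were higher in ALs and 1 was lower. As shares, 58.3% were higher and 4.17% lower, against 31.3% and 28.1% of all genes. Hspa1a, a heat shock protein, was at 5493, 8752 and 6814 in ALs and at 795, 829.9 and 905 in MaSCs (difference 3.03, SE 0.31, adjusted p = 9.15e-06). Its mean was 984 in LPs, 1077 in MLs and 5937.5 in the marked virgin cells. Mean Nr4a1, another higher member, was 5883 in ALs, 1641 in LPs, 557 in MLs and 4576 in the marked virgin cells. High levels of these genes were thus not particular to ALs. The part of tissue handling in these values was not tested.

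Respiratory chain genes were higher in ALs in 20 of 32 cases (62.5%, against 31.3% of all genes) and lower in none. The 20 became 13 with only the 6 AL and MaSC arrays in the fit. None reached 2-fold and the median difference was 0.27. Ndufs1, a subunit of complex I, was at 4518, 4547 and 4267 in ALs and at 2818, 2627 and 2718 in MaSCs (difference 0.71, SE 0.08, adjusted p = 2.78e-05). Of 19 ribosomal protein genes 1 was higher and 1 was lower. Of 19 interferon response genes 5 were higher (26.3%, near the 31.3% of all genes) and 3 lower (15.8%, against 28.1%). The 5 became 8 with only the 6 AL and MaSC arrays in the fit or with arrays centred on their medians, and 9 without the 3 arrays of marked virgin cells. The 3 became 0 without AL replicate 1, without MaSC replicate 1, without MaSC replicate 2 or with the third MaSC array as the only basal array, and 1 without AL replicate 3 or without MaSC replicate 3. All 4 tested Schwann cell markers were lower in ALs (2 when arrays were centred on their medians), and of 5 pericyte markers 2 were higher and 1 was lower.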
